A study of Caenorhabditis elegans with 2 samples.

Results

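Small nucleolar RNA (snoRNA) genes that lie wholly inside a protein-coding gene on the same strand were examined in a chromatin immunoprecipitation and sequencing (ChIP-seq) map of SNPC-4 in whole *Caenorhabditis elegans*. Of 346 genes of biotype snoRNA in the Ensembl annotation of WBcel235 (ce11), 183 met this rule and sat in 159 host genes, and the other 163 had no such host. A gene was taken to have a peak when the summit of a peak in the authors' thresholded list lay within 200 bp of its 5′ end. The worms were mixed-sex young adults of strain OP179, genotype unc-119(ed3) III; wgIs179, which stably expressed SNPC-4 carrying GFP-FLAG at the C-terminus, from a transgene whose promoter and copy number are not given in the labels. They formed the only group, with 2 biological replicates, so the data held no contrast between conditions. Whole worms pool all tissues, and a weak peak in many cells and a strong one in few cannot be told apart.

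SNPC-4 belongs to SNAPc, a complex that binds the proximal sequence element (PSE) before genes of small nuclear RNAs (snRNAs) and of spliced leader RNAs. A snoRNA guides chemical modification of ribosomal and other RNAs: those of the C/D class direct ribose methylation by fibrillarin, and those of the H/ACA class direct pseudouridine formation by dyskerin. In vertebrates most snoRNAs are cut out of introns of host transcripts, often of genes for ribosomal proteins and other parts of the translation machinery, whereas a gene with its own promoter is transcribed apart from its host. RNA polymerase III genes of the tRNA type carry an A box and a B box, internal promoter elements that the factor TFIIIC binds.

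Before most members with a peak the sequences fell into 2 recurring kinds. Of the 34 such members 12 held the first and 14 the second, and 8 held neither. Examples are shown because the peak values below are given by kind. The first kind held letters like those of a PSE, namely AACNCG, then 5 bases of any kind, then TGTCNG, where N is any base. Shown are the 100 bases upstream of the 6 members whose peaks rank next after that of Y37E3.20, the strongest member, whose sequence is not shown, and of the member of this kind with the weakest peak, read 5′ to 3′ on the gene's strand from the RefSeq ce11 genome, with the matching letters in capitals. They are W04D2.7 (chrV:12491180-12491279, plus strand), C16D9.11 (chrV:8228970-8229069, minus strand), C08D8.3 (chrV:8349008-8349107, plus strand), F01D5.12 (chrII:14018442-14018541, minus strand), T06D8.11 (chrII:11224082-11224181, plus strand), ZK994.7 (chrV:8500479-8500578, plus strand) and C02C6.13 (chrX:15552488-15552587, minus strand).

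W04D2.7: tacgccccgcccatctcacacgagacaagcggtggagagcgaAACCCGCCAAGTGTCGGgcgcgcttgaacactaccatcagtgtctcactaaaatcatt
C16D9.11: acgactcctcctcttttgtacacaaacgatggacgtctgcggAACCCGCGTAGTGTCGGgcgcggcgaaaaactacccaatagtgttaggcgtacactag
C08D8.3: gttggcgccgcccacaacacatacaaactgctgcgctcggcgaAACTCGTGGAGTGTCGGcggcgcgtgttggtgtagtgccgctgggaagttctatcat
F01D5.12: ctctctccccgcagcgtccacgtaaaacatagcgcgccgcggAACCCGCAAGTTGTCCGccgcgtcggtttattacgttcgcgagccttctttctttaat
T06D8.11: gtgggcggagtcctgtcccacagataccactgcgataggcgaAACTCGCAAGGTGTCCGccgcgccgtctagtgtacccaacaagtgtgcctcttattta
ZK994.7: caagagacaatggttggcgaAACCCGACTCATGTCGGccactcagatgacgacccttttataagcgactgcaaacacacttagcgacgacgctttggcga
C02C6.13: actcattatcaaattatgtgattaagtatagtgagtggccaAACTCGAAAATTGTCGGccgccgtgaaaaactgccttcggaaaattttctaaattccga

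The second kind held letters like those of an A box, TGG, 3 bases of any kind, AGTNG, followed at a distance by letters like those of a B box, GGTTCGA, 2 bases of any kind, CC. Up to 1 mismatch was allowed in the first and up to 2 in the second, and the start of the second had to lie 25 to 75 bases after that of the first. Shown are 100 bases upstream and the first 20 bases of the gene for 4 members with a peak and 1 without, ZK546.18, with both boxes in capitals. They are C51F7.3 (chrV:12303608-12303727, plus strand), M106.6 (chrII:10840217-10840336, plus strand), Y43F8C.22 (chrV:19643168-19643287, minus strand), T24H7.6 (chrII:6248617-6248736, plus strand) and ZK546.18 (chrII:4942500-4942619, minus strand).

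C51F7.3: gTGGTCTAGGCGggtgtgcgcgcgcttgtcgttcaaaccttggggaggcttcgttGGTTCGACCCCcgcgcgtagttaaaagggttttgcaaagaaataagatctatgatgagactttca
M106.6: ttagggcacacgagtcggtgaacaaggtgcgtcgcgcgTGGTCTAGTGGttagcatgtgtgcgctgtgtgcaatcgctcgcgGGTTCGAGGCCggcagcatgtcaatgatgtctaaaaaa
Y43F8C.22: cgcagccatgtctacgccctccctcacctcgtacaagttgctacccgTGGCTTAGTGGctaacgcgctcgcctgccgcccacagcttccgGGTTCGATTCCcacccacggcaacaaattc
T24H7.6: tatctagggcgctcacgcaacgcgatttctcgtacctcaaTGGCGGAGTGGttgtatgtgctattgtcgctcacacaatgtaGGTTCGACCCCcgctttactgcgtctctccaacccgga
ZK546.18: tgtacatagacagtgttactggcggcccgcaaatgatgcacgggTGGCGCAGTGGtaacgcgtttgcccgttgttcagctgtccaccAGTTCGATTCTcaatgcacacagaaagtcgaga

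These patterns were written after the upstream sequences of the members with a peak had been read, so their frequency among those members describes the choice and is no test. Each was searched on the gene's strand from 130 bases before to 20 bases after the 5′ end. The PSE-like letters were found in 0.198% of the 46919 such windows of all annotated genes and the A and B box-like pair in 0.247%. Among snRNA genes 16.3% of windows held the PSE-like letters, and among protein-coding genes 0.0450% did. The A and B box-like pair was in 0 of 632 windows of tRNA genes, whose boxes lie within the gene, while the search ended 20 bases into it. A match is a description of letters and not a site shown to be bound.

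In the thresholded list, 34 of the 183 members had a peak (18.6%, Wilson 95% interval 13.6% to 24.8%). Among snoRNA genes outside a host 61 of 163 did (37.4%, 30.4% to 45.1%), so these intervals did not overlap. The same rule called 4.87% of all 46926 genes and 2.59% of protein-coding genes. The 34 members used 33 different peaks, since C51F7.3 and C51F7.4 in frm-7 shared 1 summit. In the 2345 strongest entries of each replicate list, as many as the thresholded list held, 17.5% of members had an entry in replicate 1 and 17.5% in replicate 2, against 36.2% and 37.4% of genes outside a host. The call rates of all genes there were 5.48% in replicate 1 and 4.36% in replicate 2. The counts, 32 members in each replicate, thus did not differ between replicates, which is a spread of 0 over n = 2.

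Peak signal, which is the authors' own value and comes from their peak caller, spanned a wide range at the members. Over the 33 peaks the median was 112, with extremes of 43.7 and 2554. It was 143 at snoRNA genes outside a host and 60.9 over the whole thresholded list. 7 members held peaks among the 20 strongest of the list, and 10 were among the 100 strongest. 23 members had a signal below 160.

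**Figure D1:**
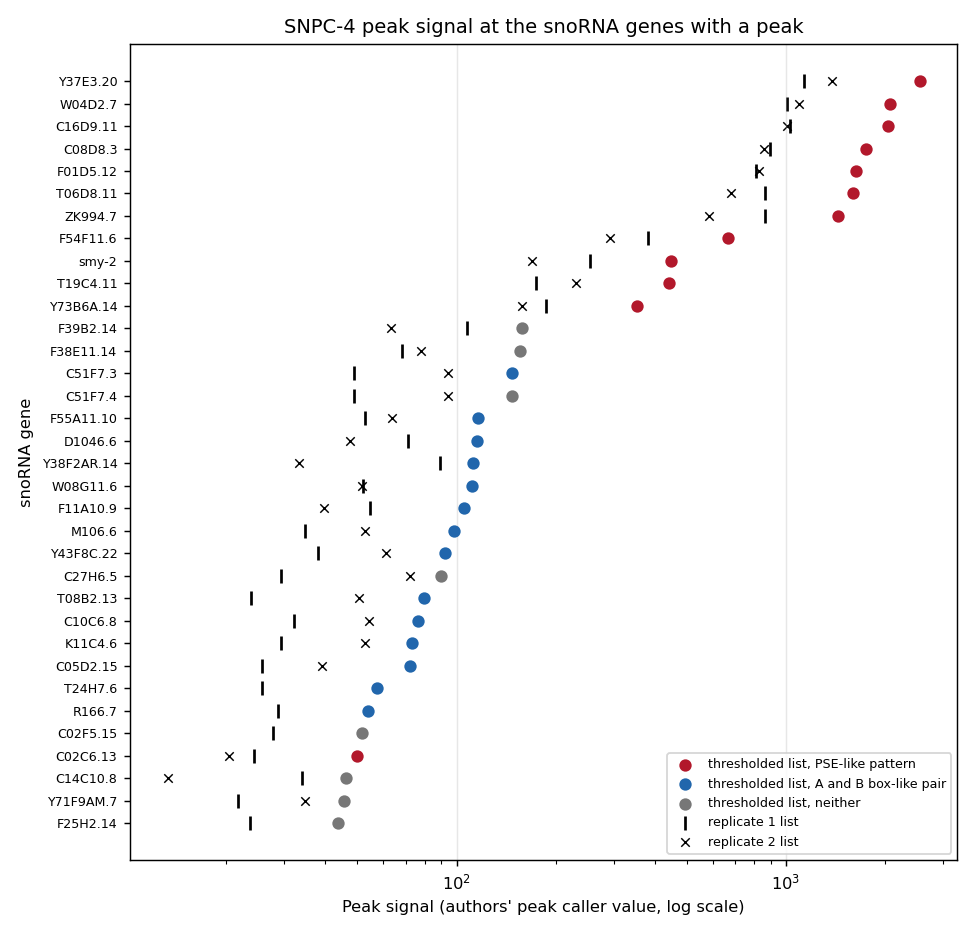
Signal of the peak at each of the 34 snoRNA genes with a peak, on a log scale, ordered from strongest to weakest. Coloured points are the thresholded list, by upstream pattern, and bars and crosses are the lists of replicate 1 and replicate 2. The 11 strongest members all held the PSE-like letters, and the A and B box-like members lay between 53.9 and 147.

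All 12 members with the PSE-like letters had a peak, and so did 20 of 21 such genes outside a host. The letters were written from the members. The word CGGAACCC, which overlaps them, was already known from earlier results of these data, so the genes outside a host are no independent check. The exception outside a host was K02F6.11, where 40.5% of the 32-base words near the 5′ end occur once in the genome. Of those 21 genes 11 fell under the 80% limit below which a position is called uncertain here, and the 10 with mostly unique flanks all had a peak. The strongest member peak stood at Y37E3.20, inside pcyt-2.1 (a gene of phospholipid synthesis), with a signal of 2554 in the thresholded list, 1138 in replicate 1 and 1381 in replicate 2. It ranked 3 in the whole list. W04D2.7, in the innexin gene inx-11, had 2078, with 1010 in replicate 1 and 1096 in replicate 2. C16D9.11, in the receptor tyrosine kinase gene rol-3, had 2038, with 1030 and 1008 in replicates 1 and 2. These 3 were the highest members in both replicates.

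The next 4 members formed a group of similar height. C08D8.3, a C/D-like member in C08D8.1, had 1759 in the thresholded list, 896 in replicate 1 and 860 in replicate 2. F01D5.12, also C/D-like, in F01D5.10, had 1637, with 814 in replicate 1 and 827 in replicate 2. T06D8.11 in plpr-1 had 1599, with 864 in replicate 1 and 683 in replicate 2. ZK994.7 in pxn-1, a peroxidasin gene, had 1445, with 867 and 584 in replicates 1 and 2. Of these 4 the replicates lay furthest apart at ZK994.7, where replicate 1 was the higher.

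Below them the signal dropped. F54F11.6, in the chemoreceptor gene sre-45, had 667 in the thresholded list, 380 in replicate 1 and 293 in replicate 2. The gene smy-2, whose name marks an SmY RNA, a class linked to spliced leader trans-splicing, is annotated as snoRNA and lies in C33A12.3. It had 449, with 254.6 in replicate 1 and 169 in replicate 2. T19C4.11, in the G protein alpha subunit gene gpa-1, had 441, with 175 in replicate 1 and 230 in replicate 2, but only 54.3% of its words were unique and its position is uncertain. Y73B6A.14 in Y73B6A.1 had 352, with 187 and 158 in replicates 1 and 2. C02C6.13, in the leucine-rich repeat gene lron-3 on chromosome X, held the same letters with a signal of only 49.8, and 24.3 and 20.4 in replicates 1 and 2, so the letters came with signals that differed widely.

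The PSE-like letters began between 80 and 56 bases upstream of the 5′ end in the members, and 10 of 12 began at 56 to 61 bases upstream. Among genes outside a host 14 of 21 began in that range. In the 12 members the summit lay a median of 7.5 bases after the first letter of the pattern, with a range of -56 to 55. The median signal was 1522 at the 12 members and 737 at the 20 genes outside a host. Members had extremes of 49.8 and 2554, and the highest value outside was 2805. The ranges overlapped. Of the 21 genes outside a host with the letters, 11 had flanks under the 80% limit, against 1 of the 12 members. These medians include such genes, and whether the uniqueness of the flanks bears on their difference was not tested.

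**Figure D2:**
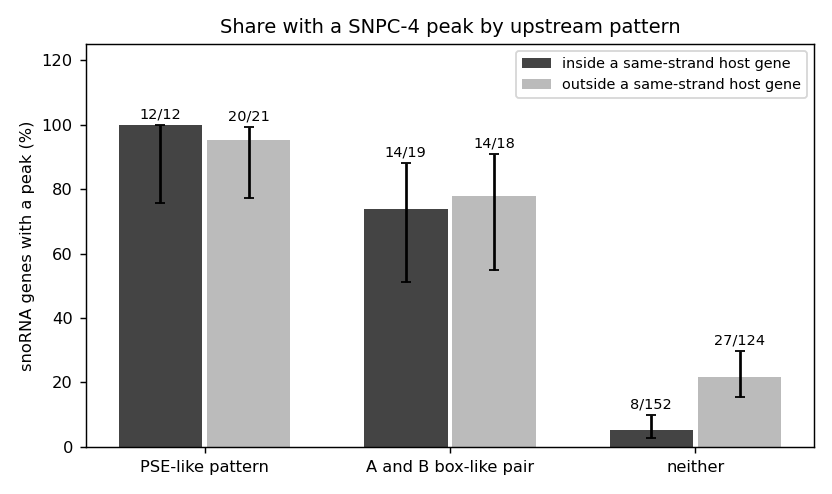
Share of snoRNA genes with a peak in the thresholded list, by upstream pattern, for genes inside (dark bars) and outside (light bars) a same-strand host gene. Error bars are Wilson 95% intervals and the numbers are genes with a peak over genes in the class; 8 of 152 members with neither pattern had a peak, against 27 of 124 genes outside a host.

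The A and B box-like pair was found before 19 members, of which 14 had a peak (73.7%, 51.2% to 88.2%), and before 18 genes outside a host, of which 14 had one (77.8%, 54.8% to 91.0%). The signals of these members were low and narrow in range, with a median of 95.1, and the genes outside a host had a median of 126. C51F7.3 in frm-7, a FERM domain gene, had the highest with 147 in the thresholded list, 48.9 in replicate 1 and 94.2 in replicate 2. F55A11.10 in F55A11.6 had 116, with 52.7 in replicate 1 and 63.5 in replicate 2. D1046.6, an H/ACA-like member in cfim-2, a gene of the messenger RNA cleavage machinery, had 115.01, with 71.2 in replicate 1 and 47.6 in replicate 2. These values stood above the list median of 60.9 but far below the stronger PSE-like members.

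Y38F2AR.14 in Y38F2AR.12 had 112 in the thresholded list, and its 88.9 in replicate 1 against 33.2 in replicate 2 was the largest ratio of the replicates among the members, 2.68. Its nearest summit lay at -1 bp from the 5′ end in replicate 1 and at 91 bp in replicate 2, where negative is upstream. W08G11.6 in W08G11.3 had 111, with 51.9 in replicate 1 and 51.6 in replicate 2. F11A10.9, in the RNA-binding protein gene rbm-34, had 105, with 54.8 and 39.6 in replicates 1 and 2. The replicates thus nearly coincided at one of these members and stood well apart at another. M106.6 in mix-1, a gene of condensin and dosage compensation, had 98.3, with 34.7 and 52.9 in replicates 1 and 2, and Y43F8C.22 in Y43F8C.7 had 92.0, with 38.0 and 61.2. T08B2.13 in fars-1, a phenylalanyl-tRNA synthetase gene, had 79.6, with 23.8 in replicate 1 and 50.4 in replicate 2. The weakest 2 of the class, T24H7.6 with 57.4 and R166.7 with 53.9, had entries in replicate 1 (25.7 and 28.7) and none within 200 bp in replicate 2.

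The 5 members with the pair and no thresholded peak were ZK546.18, D1054.17, F19H8.6, R12E2.17 and T23B12.13. ZK546.18, in the Mediator subunit gene mdt-4, had a pooled signal of 41.2, the highest of all members without a thresholded peak, and 7.64 in replicate 1 and 20.7 in replicate 2. The lowest signal in the thresholded list was 41.5. Of members with the pair, 8 of 9 that also looked like H/ACA RNAs had a peak. So did 3 of 7 that looked like C/D RNAs and all 3 of neither class. Outside a host the order of the classes was reversed. There a peak was at 1 of 4 H/ACA-like genes with the pair, 7 of 8 C/D-like ones and all 6 of neither class.

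Among the 152 members with neither pattern 8 had a peak (5.26%, 2.69% to 10.04%), near the 4.87% of all genes. F39B2.14 had the highest of these, 158 in the thresholded list, 108 in replicate 1 and 63.3 in replicate 2. It overlaps an exon of tmem-107, with its 5′ end 61 bases from that of the host, and this host start is within 200 bp of the same summit. F38E11.14 in cng-3, a cyclic nucleotide-gated channel gene, had 155, with 68.2 and 77.9 in replicates 1 and 2. C51F7.4 had the 147 of the peak it shared with C51F7.3, and C27H6.5 in unc-41 had 89.9, with 29.2 in replicate 1 and 72.1 in replicate 2, the smallest ratio of the replicates, 0.405. C02F5.15, C14C10.8, Y71F9AM.7 and F25H2.14 lay between 43.7 and 51.8, among the 5 lowest members together with C02C6.13. Searched singly, the A box-like letters were found in 4 of the 8, Y71F9AM.7, F38E11.14, C27H6.5 and C14C10.8, against 24 of the 144 members with neither pattern and no peak, and in 11.0% of windows of all genes. The B box-like letters, searched the same way, were found in 1 of the 8, against 22 of the 144, and in 6.38% of windows of all genes.

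Of the 34 members with a peak, all 34 had some entry within 200 bp in the list of replicate 1 and 30 in that of replicate 2, and 26 were among the strongest entries of both. Those full lists are labelled as peaks and background, and 29.4% of all genes had an entry in replicate 1 and 27.2% in replicate 2. At the 30 members with both, the ratio of replicate 1 to replicate 2 had a median of 0.953 and ran from 0.405 to 2.68, and it was within 2-fold at 26. Each ratio takes the nearest summit in each list. These summits lay a median of 29.5 bp and at most 94 bp apart, so a ratio may not compare the same peak. Replicate 1 was the higher at 14 and replicate 2 at 16. At the PSE-like members the ratio ran from 0.759 to 1.504 with a median of 1.11. At the 12 A and B box-like members with both entries it ran from 0.471 to 2.68 with a median of 0.656, so the weaker peaks differed more between replicates. Both replicate lists share a further input file, so they are not wholly independent measurements.

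**Figure D3:**
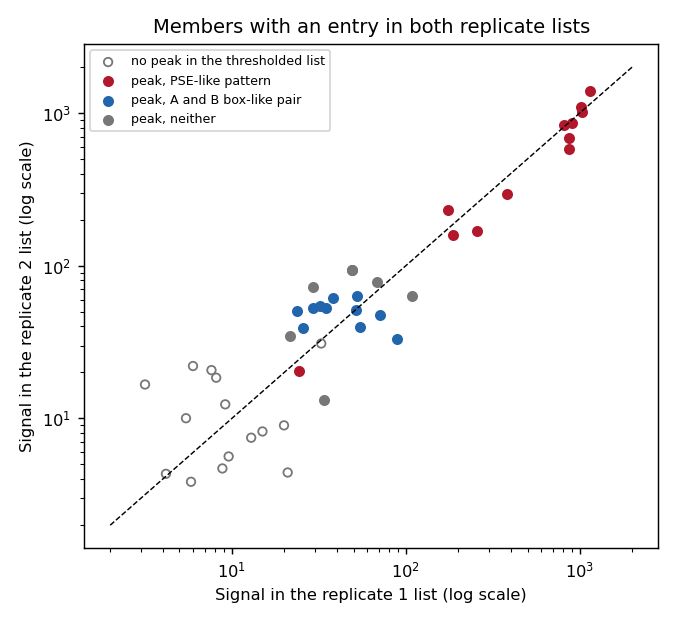
Signal in the list of replicate 1 (horizontal) and of replicate 2 (vertical), log scales, for members with an entry within 200 bp in both. Filled points have a peak in the thresholded list, open points do not, the dashed line marks equal values, and C51F7.3 and C51F7.4 share 1 point. The PSE-like members lay along the line, with ratios of 0.759 to 1.504, and the other members scattered more widely.

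Summits lay mainly just upstream of the members. At the 34 members the median position was -47.5 bp from the 5′ end, where negative is upstream, with quartiles of -56.5 and -24.5. The summit was upstream at 30 members, within 100 bp at 30, and between 30 and 60 bp upstream at 16. At genes outside a host the median was -44, and at protein-coding genes with a peak it was -112. By pattern the medians in members were -51.5 for the PSE-like, -34.5 for the A and B box-like and -42 for the rest. The summits of the replicates lay a median of 5.5 bp apart at PSE-like members and 45.5 bp apart at A and B box-like members, where 8 of 14 summits fell between the start of the A box-like and the end of the B box-like letters.

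**Figure D4:**
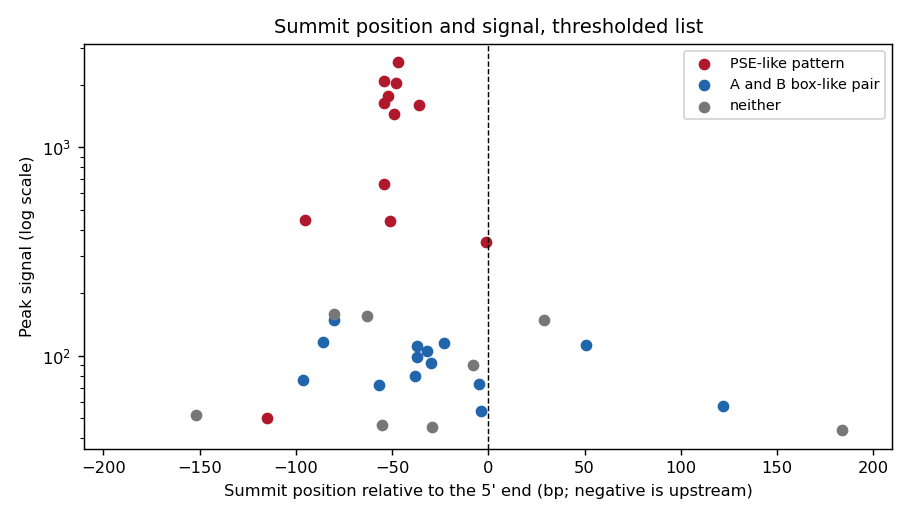
Position of the summit relative to the 5′ end of the snoRNA gene (bp, horizontal) and signal (log scale, vertical) in the thresholded list, 1 point for each of the 34 members, coloured by pattern. The strongest PSE-like members gathered around 50 bp upstream (class median -51.5), and the A and B box-like members were spread more widely at low signal.

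The nearest cases to the limit of 200 bp were few. The members just inside it were F25H2.14 with its summit at 184 bp, C02F5.15 at -152 bp and T24H7.6 at 122 bp. Just outside lay F58D5.12 at 203 bp, F54E7.10 at -247 bp and Y43B11AR.7 at 285 bp. Within 200 bp of the summit 20 of the 34 members had no other annotated gene start. Another gene of biotype ncRNA had its start there for 10, a protein-coding gene for 3, a pseudogene for 2 and a snoRNA gene for 2, and no tRNA or snRNA gene did. Which of the neighbours a peak belongs to cannot be told apart from its position.

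Position within the host differed along with the peaks. Of the members, 143 lay in an intron of every host transcript that spans them, 7 in an intron of some and 33 overlapped an exon. Peaks were present at 30 of the 143 (21.0%), 2 of the 7 and 2 of the 33 (6.06%). All 31 members with either pattern lay in introns. For the 150 intronic members, the distance from the end of the upstream host exon to the snoRNA 5′ end had a median of 174 bases in 32 members with a peak and 103 bases in 118 without. At a limit of 70 bases, chosen after the values were seen, 30 of the 95 members at or beyond it had a peak (31.6%, 23.1% to 41.5%) and 2 of the 55 nearer ones (3.64%, 1.00% to 12.3%). Those 2 were Y71F9AM.7, at 68 bases, and F25H2.14, at 25 bases.

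The same distance followed the patterns. Members with the PSE-like letters began 149 to 5378 bases after the exon, with a median of 386, and A and B box-like members with a peak 74 to 741 bases after it, with a median of 154. No member nearer than 70 bases held either pattern, but that limit was set after the values were seen, so this is no test. Among the 64 members at or beyond 70 bases with neither pattern, 4 had a peak. Intron lengths overlapped, with a median of 346 bases in members with a peak and 393 bases in those without.

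**Figure D5:**
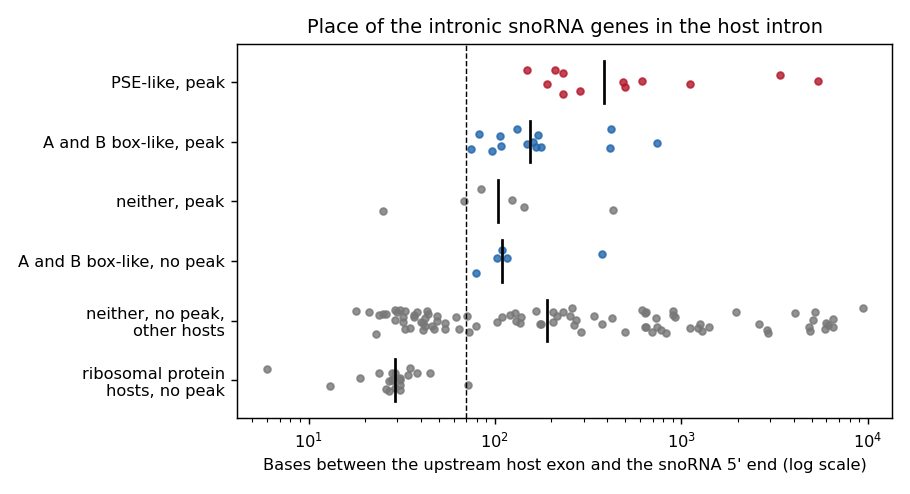
Distance from the end of the upstream host exon to the 5′ end of the snoRNA gene, in bases on a log scale, for the 150 intronic members, by pattern and peak. Each point is a gene, the black bars are medians and the dashed line marks 70 bases, a limit chosen after the values were seen. Of the 21 members in ribosomal protein genes 20 lay nearer than that, and all members with either pattern lay beyond it.

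Ribosomal protein genes hosted 21 members in 14 hosts, and none of these had a thresholded peak. Taken as up to 3 of 21, this count allows a share of up to 14.3%. The thresholded share of all genes, 4.87%, lay below that limit, so the count cannot be set apart from the share of all genes. The share of all 183 members, 18.6%, lay above the limit. That of the 152 members with neither pattern, 5.26%, lay below it, so the count cannot be set apart from that share either. Of the 21, 8 had some entry in the pooled list, where 40.4% of all members and 30.3% of all genes had one, and none held either pattern. They lay 6 to 72 bases after the exon. The highest pooled signals among them were 35.9 at B0412.7 in rps-29, with 20.9 in replicate 1 and 4.43 in replicate 2, and 28.3 at F28D1.13 in rps-23, with 4.46 in replicate 1 and no entry in replicate 2. The 3 members in rpl-6 had pooled values of 15.0 at R151.12 and 6.25 at R151.13 and none at R151.11. These are values of the weak entries that the pooled list holds below the thresholded minimum.

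The other hosts with at least 3 members had no peak at any of them either. The 4 members of nol-56, whose product is a core protein of C/D snoRNPs, began 26 to 32 bases after an exon, and their pooled signals were 13.5 at K07C5.18 and 14.6 at K07C5.10, with no entry at the other 2. The 3 members in top-2, the topoisomerase II gene, began 33 to 204 bases after the exon, and a single entry with a signal of 6.06 lay within 200 bp of K12D12.6 and K12D12.7. Of the 149 members without a thresholded peak, 40 had an entry in the pooled list and 76 had none in any of the lists used. After ZK546.18 the highest pooled signals were 37.7 at Y71D11A.7 in acsd-1, 36.1 at F25H5.9 in the pyruvate kinase gene pyk-1, 35.9 at B0412.7 and 33.9 at F58D5.11.

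The starts of the hosts were a different matter from those of the members. Of the 159 host genes, 12 had a peak at their own 5′ end (7.55%, 4.37% to 12.7%), with a median signal of 64.7 and a maximum of 240. The share of all genes, 4.87%, lay within this interval, and that of protein-coding genes, 2.59%, lay below it. Of these 12, 3 hosted a member with a peak, and 2 of the 12 peaks were also a member's peak. The 5′ ends of 3 members with a peak, F39B2.14, F25H2.14 and C02F5.15, lay within 100 bases of that of a host, and those of the other 31 lay 843 to 16071 bases from it.

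By class of RNA, as read from box-like letters in the gene, peaks were at 6 of 21 C/D-like members (28.6%, 13.8% to 50.0%), 10 of 48 H/ACA-like members (20.8%, 11.7% to 34.3%) and 18 of 114 that met neither rule (15.8%, 10.2% to 23.6%). These intervals overlapped. Among genes outside a host the C/D-like had 16 of 23 and the H/ACA-like 7 of 21. By these rules 3 of the 12 members with PSE-like letters were C/D-like and 9 met neither rule. By single letters, 8 of the 12 had CTGA, the D box letters, in the last 25 bases and 1 ended like an H/ACA RNA. Of the 14 A and B box-like members with a peak 8 were H/ACA-like and 3 C/D-like. Outside a host, 1 of the 14 such genes with a peak was H/ACA-like and 7 were C/D-like. The PSE-like members had a median length of 84 bases, and the A and B box-like members with a peak had a median of 129 bases. Outside a host this order was reversed, with 143.5 bases in PSE-like genes with a peak and 72 bases in A and B box-like ones.

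Peaks were at 13 of 36 members on chromosome V (36.1%, 22.5% to 52.4%) and at 2 of 38 on chromosome III (5.26%, 1.46% to 17.3%). The other chromosomes lay between, with 7 of 28 on IV, 6 of 35 on II, 5 of 36 on I and 1 of 10 on X. Over all chromosomes 4.87% of all genes had a peak, and no such share is given here by chromosome. Genes outside a host did not show this contrast, with 8 of 19 on V (42.1%) and 7 of 16 on III (43.8%). Chromosome III held 8 of the 21 members in ribosomal protein genes, and whether this bears on its share was not tested.

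The exact word CGGAACCC, searched on both strands in the 100 bases upstream, was present at 4 of 34 members with a peak, 1 of 149 without and 0.166% of all genes. Its last letters overlap the first of the PSE-like pattern. The word TACCGACA was at 0 of 34 members with a peak, 0 of 149 without and 0.149% of all genes. A count of 0 of 34, taken as up to 3 genes, allows a share of up to 8.82%. Among all words of 7 bases, CGGGTTC and AACCCGC had the largest differences, with 7 of 34 members with a peak and 0 and 1 of the 149 without, and were found in 0.403% and 0.405% of all windows. AACCCGC and the complement of CGGGTTC hold the first letters of the PSE-like pattern, but matches also came from the B box-like letters, as at M106.6 for both words and at Y43F8C.22 for CGGGTTC. No test was made of them.

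The genes for the core proteins of snoRNPs were set beside the members. Of 8 such genes 1 had a peak, where 4.87% of all genes and 2.59% of protein-coding genes had one. A count of 1 among 8 genes is too small to set apart from these shares. It was fib-1, the fibrillarin gene, with a signal of 75.1 at 148 bp upstream in the thresholded list, 34.7 in replicate 1 and 38.4 in replicate 2. The NOP10 homologue C25A1.16 had a pooled signal of 24.3 and 20.6 in replicate 1, with no entry in replicate 2. The genes nol-56, nol-58, snu-13 and garr-1, the last encoding the GAR1 protein, had no entry in any of the lists, and dkc-1, the dyskerin gene, had a weak entry of 8.49 in replicate 1 alone. Some entry was found for 30.3% of all genes in the pooled list and 29.4% in that of replicate 1.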

How the data were processed

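SNPC-4 ChIP-seq of 2 biological replicates was read from the authors' deposited peak lists on ce11, with summits given in bases from the peak start. The signal of each peak is a value the authors deposited with it, on a scale relative to control that no source used here states. The deposited −log10 q values were not used for ranking. Per the submitters' file listing, both replicate lists share a further input file, and the thresholded list comes from the pooled and replicate lists by irreproducible discovery rate. The sources used here do not give the aligner, the peak caller or the thresholds. The ce10 lists were not used. The lists hold no read counts, so depth is unknown, and intervals cover counting of genes only.

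Genes came from Ensembl release 115 and symbols and sequence from RefSeq, both on WBcel235 (ce11), whose chromosome names and lengths were compared with the peaks. A gene counted as H/ACA-like when at least 100 bases long with ACA near its 3′ end, and as C/D-like with C and D box letters near its ends. Positions with under 80% of 32-base words unique within 200 bp are called uncertain, which covered 8 members, 1 of them with a peak. The members, lists and windows were chosen with earlier results of these data known, and the patterns and the 70-base limit after the values were seen. Members were named by rule: the 20 strongest and 5 weakest, the extremes of the replicate ratio, those nearest the 200 bp limit, the 5 strongest without a thresholded peak, and hosts with 3 or more members or encoding ribosomal proteins. Other members were named to complete a class. Counts, medians and Wilson 95% intervals describe 1 group, and no test was made. Alternatives covered the window, the overlap rule, stricter lists, each replicate alone, unique flanks, and mismatches. Python 3.11.15, pandas 2.3.3, numpy 2.4.6, SciPy 1.17.1 and matplotlib 3.10.9 were used, with the search rules tested on simulated data.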

Additional observations from a re-analysis of the deposited data

How the results depend on the processing

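The number of members with a peak, 34 of 183, stayed between 24 and 49 under every alternative run. It was 30 in a window of 100 bp, 49 in a window of 500 bp and 37 by overlap of the peak with the gene. The stronger part of the list gave 27. With unique flanks only it was 33 of 175, and it was 24 of 173 where no other noncoding RNA gene lay at the summit. No share of all genes was taken under these other rules, and a wider window can only raise a count. The number was 32 without either replicate. The median signal, 112 in the thresholded list, was 36.1 in the pooled list and 17.5 to 21.7 with 1 replicate left out, where the full lists also hold weak entries. Over the 2345 strongest entries of each replicate list it was 54.8 in replicate 1 and 63.3 in replicate 2. The scale of the signal is not known to be shared between lists, so these medians do not measure a change. The median summit position, -47.5 bp, was -36 to -27 bp with 1 replicate left out and -50.5 bp in the pooled list. Those values too are over full lists that hold weak entries. Over the 2345 strongest entries it was -37 bp in replicate 1 and -47 bp in replicate 2. With at most 1 mismatch, CGGAACCC was at 10 of 34 members with a peak, 6 of 149 without and 1.86% of all genes. TACCGACA was then at 1 of 34 (2.94%), 7 of 149 (4.70%) and 3.23% of all genes.

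The alternatives for the patterns were chosen after seeing the data. With 1 mismatch fewer in each box the A and B box-like pair was found before 6 members, of which 5 had a peak, in place of 14 of 19. With 1 mismatch allowed, the PSE-like letters were at 13 members, of which 12 had a peak. With 1 replicate left out, 11 PSE-like members and 13 to 14 A and B box-like members were among the strongest entries.

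No paired analysis was possible because both replicates belong to 1 group. With 2 replicates and no read counts, signals could not be given an error from depth, and entries below the thresholded minimum cannot be told from background.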
